A study of Homo sapiens with 16 samples.

Results

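The sites described here are the entries of a pseudouridine map of HEK293T cells, a transformed human line from embryonic kidney, that were assigned to 3 non-coding genes over the ribosomal DNA of chromosome 21. They were chosen by the deposited gene symbol alone, which is ENSG00000280441 for 25 sites, ENSG00000278996 for 12 and ENSG00000281181 for 4, so that 41 of the 13398 sites of the table belong to them (0.306%). The study treated RNA with sulfite and bisulfite (PRAISE-seq), which turns pseudouridine into an adduct that reverse transcription skips in some cDNAs, leaving a deletion. In HEK293T the labels give 3 treated and 3 untreated libraries of a knockout lacking PUS1, PUS7 and RPUSD4, and 2 treated and 2 untreated control libraries. HuCCT1, a cholangiocarcinoma line, has 3 treated and 3 input libraries. The labels name neither the clones of the knockout nor separate cultures. The table has no column per library: each site carries 1 pooled deletion level, the share of covering reads with the deletion, so no condition could be compared and no replicate error can be given. All intervals below are 95% intervals that cover counting error only.

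Human ribosomal RNA is transcribed from many near-identical copies of the 45S gene as a precursor that holds the 18S, 5.8S and 28S rRNAs. Its uridines are isomerised to pseudouridine mainly in the nucleolus by dyskerin, the enzyme of the H/ACA particles, which small nucleolar RNAs guide to their targets by base pairing. PUS1 and PUS7 instead recognise their targets directly, and RPUSD4 is an enzyme with a role in mitochondria, which need not be its only one.

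The 3 gene symbols do not mark 3 copies. RefSeq (GRCh38.p14) places 3 complete 45S genes in this region of chromosome 21, RNA45SN2 at 8205988 to 8219302, RNA45SN3 at 8389035 to 8402343 and RNA45SN1 at 8433222 to 8446572. ENSG00000280441 covered both RNA45SN1 and RNA45SN3, with 12 and 11 of its sites inside them, ENSG00000278996 covered RNA45SN2 with 11 sites, and the 4 sites of ENSG00000281181 lay on the opposite strand of the 18S gene of RNA45SN1. Of the 41 sites, 18 lay in 18S genes, 14 of them in the sense of the rRNA, 20 lay in 28S genes, and 3 lay in the spacer outside the 45S genes. The deposited region follows the non-coding transcripts and not the rRNA: all 20 sites in 28S were annotated as intronic, and of the 14 sense sites in 18S 6 were annotated as intronic and 8 as exonic. Neither the table's 5.8S sites nor the other pseudogene copies of chromosome 21 carry these gene symbols.

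The 41 sites held 20 different contexts of 11 nt, with the listed uridine at base 6. Of these, 10 contexts were listed in all 3 copies (30 sites), 1 in 2 copies, and 9 once. The contexts listed in more than 1 copy carry the comparison between copies and are printed 5′ to 3′ in DNA letters as deposited (hg38, plus strand of chromosome 21), with the listed uridine in capitals. Positions are counted from the first base of the 18S or 28S gene, those of 28S in RNA28SN1, because the 28S genes of the copies differ in length (5066 nt in RNA28SN1, 5055 in RNA28SN3 and 5054 in RNA28SN2).
18S position 572: ccactTtaaat
18S position 573: cacttTaaatc
18S position 918: atgatTaagag
18S position 1445: cttctTagagg
28S position 1536: tgaacTatgcc
28S position 3850: tactaTccagc
28S position 3918: gagctTgactc
28S position 4358: ggtttTaagca
28S position 4686: atgacTgaacg
28S position 4999: gggttTcgtac
28S position 5006: gtacgTagcag

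Sites of ribosomal RNA were the deepest kind in these loci. Coverage ran from 2395 to 31154 reads at the 14 sense sites in 18S, from 6765 to 142398 reads at the 20 sites in 28S, and from 32 to 54 reads at the 3 spacer sites. The median over the 41 sites was 24727 reads, against 34 reads over the rest of the table. Coverage of at least 1000 reads was reached by 36 of the 41 sites (87.8%), against 0.599% of the other sites. The 41 sites made up 23.6% of the coverage summed over all sites and 13.5% of the summed deletion reads. The RNA had been depleted of rRNA before treatment, per the labels' protocols, and no source used here says how reads matching several copies were placed. The copies can therefore share reads and are not independent measurements.

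The deletion levels were moderate, with a median of 12.6% against 12.0% at the other sites and a range of 5.0 to 34.0%. At coverage of at least 60 reads, where the shallow sites with few possible levels drop out, the median was 12.4% at 38 of these sites and 6.7% at 2617 others. With each of the 20 contexts counted once, the median was 1.5 points lower than that of the rest (a difference of -1.5). At coverage of at least 1000 reads, closer to the depth of these sites, it was 12.95% at 36 of them and 8.75% at 80 others. The table's minimum of 3 deletion reads keeps low levels out at shallow sites, which make up most of the rest. The plot of depth against level shows the rRNA sites to the right of nearly all others at levels that many other sites also have.

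**Figure D1:**
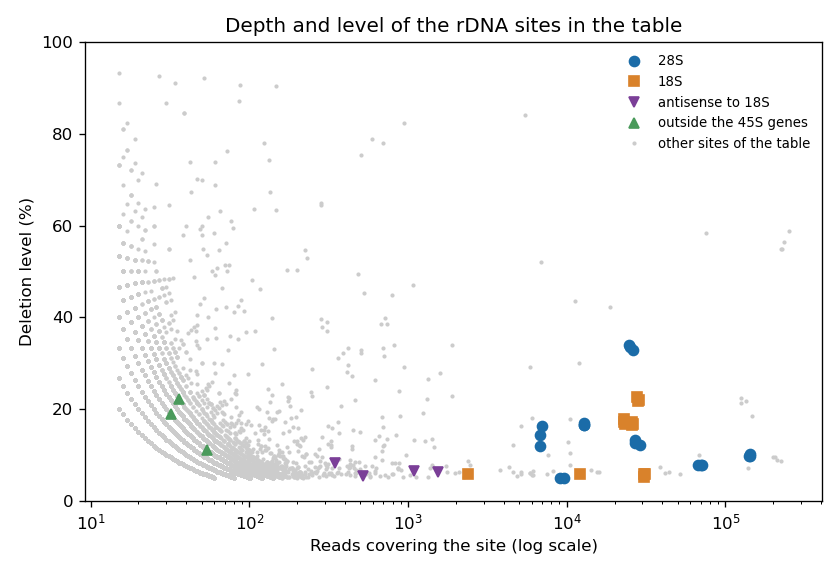
Deletion level (%, vertical axis) against the number of reads covering the site (horizontal axis, log scale) for the 41 rDNA sites and for all other sites of the table in grey. The 20 sites in 28S lie between 6765 and 142398 reads, the 3 spacer sites between 32 and 54 reads.

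Copies of the 45S gene gave nearly the same level at most shared positions. Their coverage was nearly the same too, with a ratio of highest to lowest of 1.004 to 1.071 at positions listed in all 3. The copies can share reads, whereas the test below takes the reads of each copy as separate. The 11 shared positions allow 31 pairs of copies, and 8 of these pairs differed past the threshold (25.8%; Fisher's exact test on deletion and other reads, two-sided, Benjamini-Hochberg adjusted p under 0.05). The same test over all 2956 pairs of sites with an identical context in the whole table called 15.6%. That share depends on depth: among the 149 pairs with at least 1000 reads at both sites it was 60.4%, and 68.9% when pairs with any of the 41 sites were left out. The 8 calls stood at 4 positions, 3 of them at 28S position 4358. Among the 28 pairs of the other positions 5 were called, with differences of 0.4 to 1.1 points. The median SD over the copies at the 10 positions listed in all 3 was 0.401 points. At 8 of these 10 the SD was above the counting error of a level. When pairs under 100 reads were left out before adjustment, 12 of the 31 passed, against 54.9% of the 388 pairs that remained in the table. With Bonferroni adjustment 2 pairs passed, and without RNA45SN1, RNA45SN3 or RNA45SN2, which removes the pairs of that copy, 3, 4 and 1 pairs remained.

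The highest level among the 41 sites stood near the 3′ end of the 28S rRNA. At 28S position 5006 it was 34.0% in RNA45SN1 (24727 reads, interval 33.4 to 34.6%), 33.5% in RNA45SN3 (25023 reads, 32.9 to 34.1%) and 32.9% in RNA45SN2 (25969 reads, 32.3 to 33.5%). The copies lay within 1.1 points of each other. RNA45SN1 and RNA45SN2 differed by 1.1 points (interval 0.277 to 1.92), which did not pass the threshold over all pairs (Fisher's exact test, adjusted p = 0.0558) but passed when pairs under 100 reads were left out before adjustment (adjusted p = 0.0172).

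Upstream by 7 bases, position 4999, the last of 3 uridines in a row, had 13.3% in RNA45SN1, 12.6% in RNA45SN3 and 12.2% in RNA45SN2 at 27011 to 28921 reads. RNA45SN1 stood 1.1 points above RNA45SN2 there (interval 0.549 to 1.66, Fisher's exact test, adjusted p = 0.000939), and the other pairs did not pass. With pairs under 100 reads left out before adjustment, RNA45SN1 and RNA45SN3 differed there as well (Fisher's exact test, adjusted p = 0.0283). In every copy the level at 4999 was far below that at 5006.

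The largest difference between copies was at 28S position 4358, the last of 4 uridines in a row. Its level was 16.2% in RNA45SN1 (1127 of 6957 reads, interval 15.3 to 17.1%), 14.2% in RNA45SN3 (963 of 6782 reads, 13.4 to 15.1%) and 11.9% in RNA45SN2 (805 of 6765 reads, 11.1 to 12.7%). All 3 pairs passed the threshold. RNA45SN1 exceeded RNA45SN2 by 4.3 points (interval 3.14 to 5.46, Fisher's exact test, adjusted p = 8.51e-12), RNA45SN1 exceeded RNA45SN3 by 2.0 points (0.799 to 3.2, adjusted p = 0.0091), and RNA45SN3 exceeded RNA45SN2 by 2.3 points (1.17 to 3.43, adjusted p = 0.000769). The SD over the copies was 2.15 points, against a largest value of 0.557 points at the other positions listed in 3 copies. This position also had the lowest coverage of those positions, 6765 to 6957 reads.

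Position 3918 of 28S was the deepest of the 41 sites, with 141510 reads in RNA45SN1, 142398 in RNA45SN3 and 142070 in RNA45SN2. Its levels were 9.7%, 9.8% and 10.2% in that order. At this depth differences of 0.5 points (RNA45SN1 minus RNA45SN2, -0.5, interval -0.721 to -0.28, Fisher's exact test, adjusted p = 9.93e-05) and 0.4 points (RNA45SN3 minus RNA45SN2, -0.4, interval -0.62 to -0.179, adjusted p = 0.00344) passed the threshold. Levels are rounded, which matters at this depth. With deletion reads at the rounding that brings each pair closest, adjusted p was 0.00331 and 0.0494 in that order (Fisher's exact test). Here RNA45SN2 was the highest copy, while at 4358 it was the lowest.

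At the other 28S positions no pair of copies passed the threshold. Position 4686 had 7.8% in RNA45SN1 (70777 reads), 7.7% in RNA45SN3 (66858 reads) and 7.8% in RNA45SN2 (70233 reads), a range of 0.1 points. Position 1536 had 16.5%, 16.5% and 16.9% at 12844 to 12895 reads. Position 3850 was listed in RNA45SN1 and RNA45SN2 only, at 5.0% each (9630 and 9123 reads, intervals 4.58 to 5.46% and 4.56 to 5.47%), exactly at the table's minimum of 5%, and RNA45SN3 has no entry there.

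In the 18S rRNA, positions 572, 918 and 1445 are known to carry pseudouridine in human cells. Position 573 had the highest level, 21.7% in RNA45SN1 (28070 reads), 21.9% in RNA45SN3 (28431 reads) and 22.6% in RNA45SN2 (27802 reads). Position 572 had 16.4%, 16.8% and 17.1% in the same copies at 25760 to 26153 reads. Both are uridines of the same run of 3, in which the base that was lost cannot be told apart from its neighbour in the sequence alone. No pair of copies passed the threshold over all pairs at either position. The largest difference was RNA45SN1 minus RNA45SN2 at 573, -0.9 points (interval -1.59 to -0.211, Fisher's exact test, adjusted p = 0.065), which passed when pairs under 100 reads were left out before adjustment (adjusted p = 0.0202).

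Position 1445 had 16.8% in RNA45SN1 (23290 reads), 17.7% in RNA45SN3 (22901 reads) and 17.2% in RNA45SN2 (22845 reads), and no pair passed over all pairs. With pairs under 100 reads left out before adjustment, RNA45SN1 and RNA45SN3 differed at 1445 (Fisher's exact test, adjusted p = 0.0205). Position 918 was close to the table's minimum, with 5.8% in RNA45SN1 (1807 of 31154 reads), 5.7% in RNA45SN3 (1750 of 30702 reads) and 5.2% in RNA45SN2 (1584 of 30469 reads). RNA45SN2 was the lowest there, with RNA45SN1 above it by 0.6 points (interval 0.242 to 0.962, Fisher's exact test, adjusted p = 0.00877) and RNA45SN3 by 0.5 points (0.141 to 0.861, adjusted p = 0.0422). The second of these no longer passed Fisher's exact test when the deletion reads were set to the end of the rounding that brings the copies closest (adjusted p = 0.145).

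**Figure D2:**
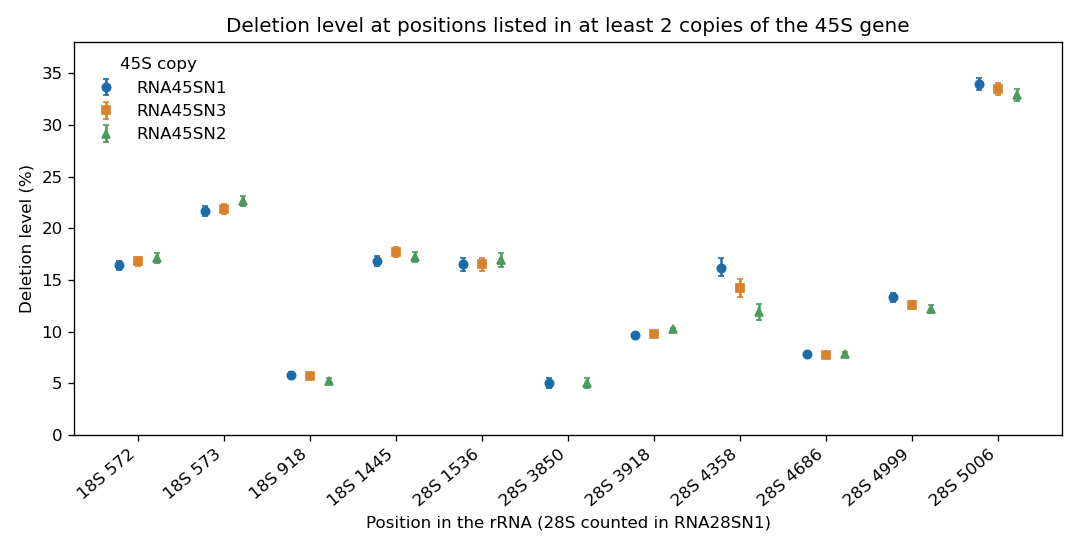
Deletion level (%, vertical axis) with its 95% counting interval at the 11 rRNA positions listed in at least 2 copies, for RNA45SN1, RNA45SN3 and RNA45SN2 from left to right at each position. The copies nearly coincide at every position except 28S 4358, where they stand at 16.2%, 14.2% and 11.9%.

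No copy was high or low throughout. RNA45SN1 was highest at 5 of the 10 positions, RNA45SN2 at 4 and RNA45SN3 at 1. In the 18S gene RNA45SN1 was highest at 1 of 4 positions and in the 28S gene at 4 of 6, with ties counted for the copy named first. RNA45SN2 was in 7 of the 8 pairs that passed, and in 21 of the 31 pairs compared. The 8 calls were at a uridine with another uridine beside it, where 21 pairs were compared at 7 positions, and where 13.4% of all same-context pairs of the table were called. At the 4 positions with no uridine beside the listed base 0 of 10 pairs were called by Fisher's exact test, with 1 at an unadjusted p under 0.05, against 23.9% of such pairs in the table. This split depends on the adjustment: with pairs under 100 reads left out beforehand, 11 pairs passed at the first kind of position and 1, at 28S 5006, at the second. The shares of 13.4% and 23.9% cover pairs of all depths, most of them far shallower than these. No share at matched depth was made for either kind of position. The 28S genes of the copies differ in length, so their sequences are not identical outside the 11 bases of the contexts. Which bases differ, and whether any lie near the listed positions, was not tested.

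**Figure D3:**
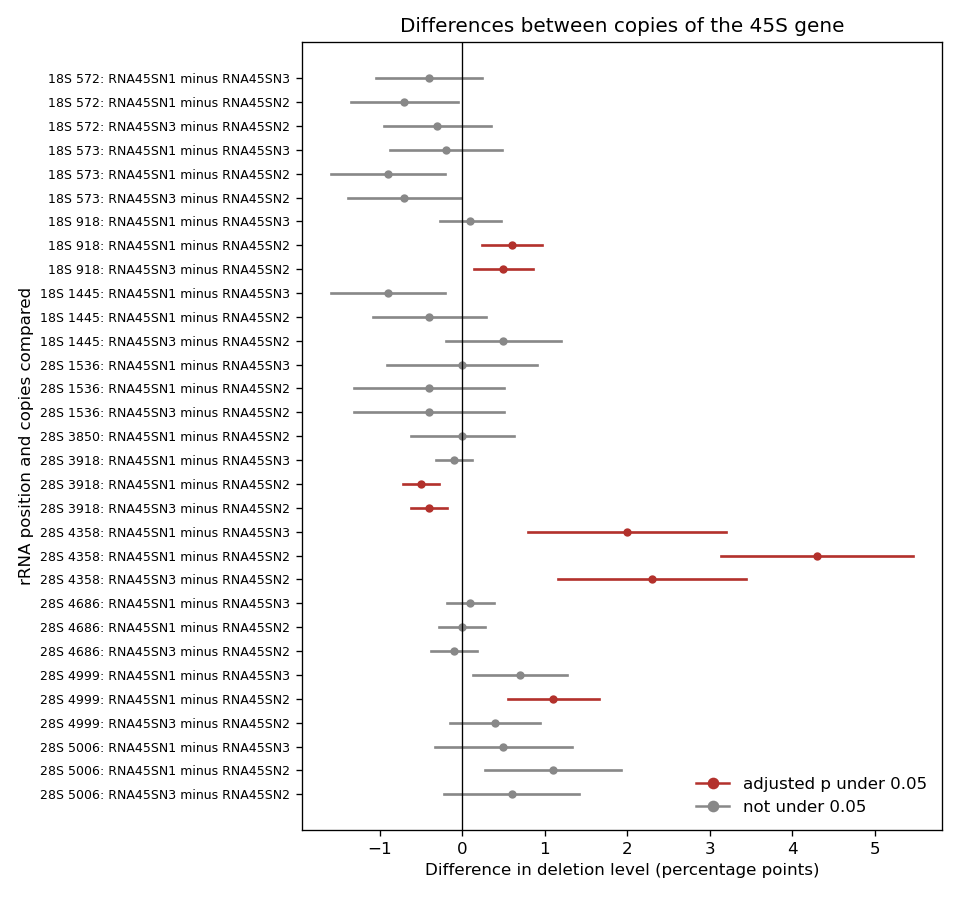
Difference in deletion level between copies (percentage points, horizontal axis) for the 31 pairs, with 95% intervals, the copy named first minus the one named second. The 8 pairs with an adjusted p under 0.05 are in red, and the 3 at 28S 4358 reach 2.0, 4.3 and 2.3 points.

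For comparison within the same transcripts, the 5.8S rRNA between 18S and 28S had 54.8% in RNA45SN1, 56.4% in RNA45SN3 and 55.0% in RNA45SN2 at its position 69, in sites that the table assigns to the 5.8S genes. Position 55 had 22.4%, 21.8% and 21.2% in the same copies, and position 67 had 9.5%, 8.8% and 9.5%.

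Further 18S positions were listed in 1 copy each. Position 1056, in the context gacgaTcagat, had 5.9% in RNA45SN1 (141 of 2395 reads, interval 4.98 to 6.91%), and position 1368, in ctggtTaattc, had 5.9% in RNA45SN3 (714 of 12095 reads, interval 5.49 to 6.34%). Both are near the minimum of 5%, and no level is listed for the other copies. Of the 41 sites, 8 had levels under 6%.

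The 4 sites of ENSG00000281181 were on the minus strand, antisense to the 18S rRNA of RNA45SN1, and are shown because their place relative to the rRNA is what they share. They are printed 5′ to 3′ on the minus strand with the listed base in capitals.
opposite 18S position 865: ttccaTtattc
opposite 18S position 1055: tctgaTcgtct
opposite 18S position 1173: aaccaTactcc
opposite 18S position 1641: gggaaTtcctc
Levels were 5.4% (28 of 519 reads, interval 3.62 to 7.7%) at 865, 6.2% (95 of 1537 reads, 5.03 to 7.5%) at 1055, 6.4% (69 of 1084 reads, 4.99 to 7.99%) at 1173 and 8.1% (28 of 346 reads, 5.45 to 11.5%) at 1641. These sites were shallower and lower than most of the sense sites.

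In each of the 4 antisense sites the listed base pairs with an adenosine of the 18S rRNA whose next base is a uridine. In the sense of the rRNA, with that uridine in capitals, the sequences are gaataaTggaa, agacgaTcaga, ggagtaTggtt and gaggaaTtccc. The uridines are at 18S positions 866, 1056, 1174 and 1642, of which 866, 1056 and 1174 are known to carry pseudouridine. At 1642 the next base is a uridine as well, and the antisense site does not tell these neighbours apart. Over all 6500 minus-strand sites of the table, 28.5% have an adenosine just before the listed base, which is the same arrangement. At 1056 the rRNA strand was listed as well, with 5.9% of 2395 reads in the sense direction beside 6.2% of 1537 reads at the adjacent antisense base. The same pairing of strands occurred at 28S position 3850, with 5.0% in the sense direction in RNA45SN1 and RNA45SN2 beside 6.5% (6094 reads) and 5.6% (6010 reads) on the opposite strand, in sites that the table assigns to the 5.8S genes. The source of the antisense reads was not tested.

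The antisense contexts were listed at 14 sites of chromosome 21, since the same sequence in RNA45SN3 and RNA45SN2 and in the 18S pseudogene RNA18SP5 was assigned to other gene symbols. Opposite 18S 1055 the levels were 6.2% in RNA45SN1, 7.4% in RNA45SN3, 7.1% in RNA45SN2 and 6.6% in RNA18SP5. Opposite 1173 they were 6.4%, 7.1%, 5.6% and 6.9% in the same order. Over these 14 sites levels ran from 5.4 to 9.0% at 317 to 1537 reads. None of the 10 differences on chromosome 21 from the site of ENSG00000281181 passed the threshold (Fisher's exact test, lowest adjusted p = 0.569, with 0 at an unadjusted p under 0.05), and at this depth intervals such as -3.08 to 0.566 points for RNA45SN1 minus RNA45SN3 opposite 1055 are wider than those of the sense pairs. The context opposite 865 was also listed on other chromosomes at levels above that range. Against 5.4% at the site of ENSG00000281181, it had 10.6% (17 of 161 reads) at LINC00273 on chromosome 16 and 9.8% (16 of 163 reads) on chromosome 22. Neither passed the threshold (Fisher's exact test, adjusted p = 0.145 and 0.278), the first with an unadjusted p under 0.05.

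The rRNA contexts also occurred at other places of the genome. These places were matched by the identical context alone. Whether the sequence around each of them is a copy of rRNA was not tested. Of the 13 sense contexts in 18S and 28S, 10 were listed at 23 further sites, which had 46 to 31204 reads and levels of 5.1 to 87.2%. The level was above that of every chromosome 21 copy at 13 of these sites, below at 8 and within the range of the copies at 2. The table lists no level under 5%, so sites below the copies can be missing from this count. At 28S 3850, where the copies have 5.0%, none could be listed below them. The difference passed the threshold against every copy at 19 of the 23 (Fisher's exact test, adjusted over the 2956 pairs), 13 of them above the copies and 6 below. For comparison, of all same-context pairs 15.6% were called. Among pairs without any of the 41 sites and with at least 1000 reads at both sites, 68.9% were called. These shares count single pairs, whereas a site counted here had to pass against every copy. The share of 68.9% also does not cover the shallower of the 23 sites. Some of these passed, such as the site at 87.2% with 86 reads, and the site with 46 reads did not.

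The context of 18S 572 covered the widest range. It had 16.4 to 17.1% in the 3 copies, against 87.2% at chromosome 22 position 11252277 (75 of 86 reads, 95% interval 78.3 to 93.4%) and 75.4% at position 11630118 of the same chromosome (380 of 504 reads, 71.4 to 79.1%). The same context had 12.7% at chromosome 20 position 29299585 (10247 reads) and 5.7% in the 18S pseudogene RNA18SP5 at chromosome 21 position 8254410 (788 reads). At 18S 918 the copies had 5.2 to 5.8% at 30469 to 31154 reads, against 5.2% at 31204 reads in RNA18SP5. The pseudogene thus had far fewer reads than the copies at 572 and as many at 918.

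The contexts of 28S 3850 and 3918 were found together at 3 other loci, 68 bases apart as in RNA45SN1 and RNA45SN2. In the chromosome 21 copies 3850 had 5.0% and 3918 had 9.7 to 10.2%. In an intron of RYR2, the gene of the calcium release channel of heart muscle, on chromosome 1 they had 11.6% (1457 reads) and 30.1% (11927 reads). In an intron of AAMDC on chromosome 11 they had 28% (411 reads) and 7.3% (4311 reads). At ENSG00000275110, a microRNA locus on chromosome X, they had 32.9% (502 reads) and 29.2% (5901 reads). Position 3918 was the higher of the pair in the copies and at RYR2, and the lower at the other two loci.

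Toward the 3′ end of 28S, the context of 5006 had 32.9 to 34.0% in the copies, against 42.3% at chromosome 12 position 127165967 (18694 reads) 27.8% in an intron of USP13, a deubiquitinase gene, on chromosome 3 (1582 reads), and 7.0% at the pseudogene UBE2V1P16 on chromosome X (13 of 187 reads). The context of 4999 had 12.2 to 13.3% in the copies, against 33.9% in an intron of TXNL4A, which encodes a U5 particle protein, on chromosome 18 (1893 reads) and 8.7% at RAB30-DT on chromosome 11 (4 of 46 reads), which did not pass the threshold (Fisher's exact test, adjusted p = 0.99). The context of 4686 had 7.7 to 7.8% in the copies, against 67.4% at chromosome 12 position 38137820 (135 reads) and 38.5% at the U4 pseudogene RNU4-47P (740 reads). The context of 1536 had 16.5 to 16.9% in the copies and 16.6% (12789 reads) at a further locus of chromosome 21, inside the range of the copies.

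**Figure D4:**
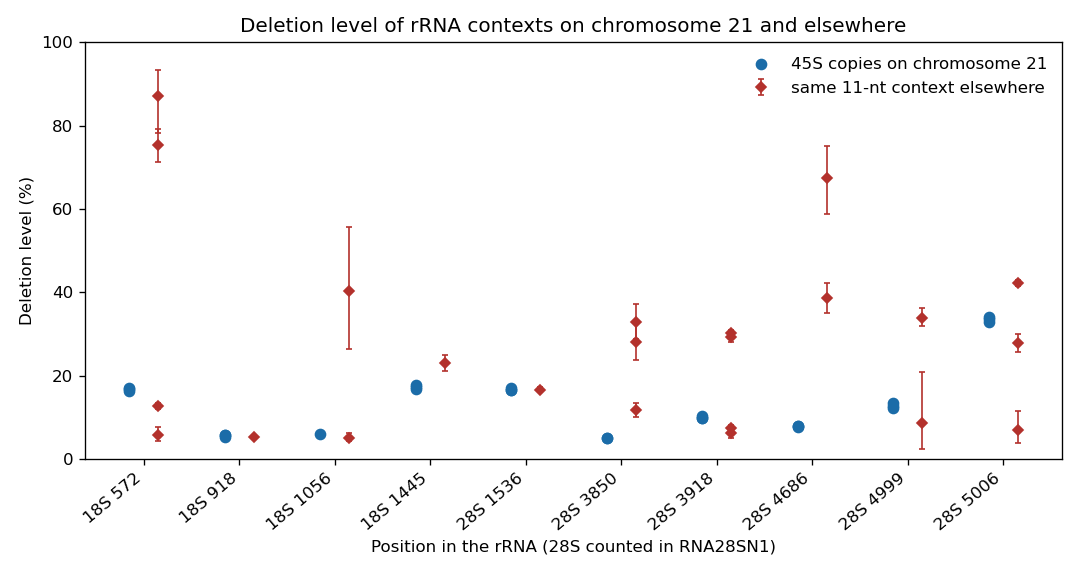
Deletion level (%, vertical axis) of the 10 sense rRNA contexts that were also listed elsewhere, in the copies of chromosome 21 (blue) and at the 23 other sites (red, with 95% counting intervals). Levels elsewhere reach 87.2%, while the copies stay close together at each position.

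The 3 spacer sites rested on few reads and few deletions. One lay 2368 nt before RNA45SN2 at position 8203620 of chromosome 21, in the context cttttTctttc, and had 11.1% (6 of 54 reads, interval 4.19 to 22.6%). Another lay 3190 nt before RNA45SN1 at 8430032, with 18.8% (6 of 32 reads, interval 7.21 to 36.4%) in tttttTgagac. The last lay 10008 nt after RNA45SN3 at 8412351, with 22.2% (8 of 36 reads, interval 10.1 to 39.2%) in ttctcTgtccg.

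The context of the spacer site before RNA45SN1 had a matching entry in another spacer. It lay 2498 nt before the microRNA gene MIR6724-4, and at chromosome 21 position 8247008 the same context lay 2497 nt before MIR6724-2, with 15.0% (3 of 20 reads). That context was listed at 25 sites outside these loci on 16 chromosomes, 22 of them intronic, at 5.4 to 33.3% with a median of 15.4%. None of the 25 differed from the spacer site past the threshold (Fisher's exact test adjusted over all pairs, with 0 at an unadjusted p under 0.05), at 15 to 73 reads. At so few reads the table's minimum of 3 deletion reads keeps low levels out, as with the 3 of 20 reads above. Similar levels were therefore partly set by that minimum, and the comparison could hardly find a difference.

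Sequences preferred by PUS1 and PUS7, which are missing in the knockout, stood in 3 of the 20 contexts, searched on the strand of the listed uridine. The PUS7 motif, UNUAA or UNUAG with the third base listed, was present at 18S 573 and 28S 4358. It is held by 3.09% of all sites of the table, the form shared with PUS1 not counted. Both positions are the last uridine of a run, of 3 at 573 and of 4 at 4358. The base lost from such a run cannot be told apart in the sequence alone, so the match depends on which uridine was listed. The PUS1 motif, in which the listed uridine follows a purine with a base other than G before it and precedes an adenosine and a purine, was present at 28S 5006 and is held by 2.33% of all sites. The TRUB1 motif, GUUCNA, was in none of them, against 0.746% of all sites. A match of letters does not show which enzyme acts there, and the table has no knockout values to set beside it. A run of at least 2 uridines held the listed base in 12 of the 20 contexts (26 of 41 sites), against 58.7% of the sites of the table.

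Of the 41 sites, 38 had a p-value of 0 in the authors' deposited table. The other 3 p-values in that table were 1.169e-51 opposite 18S 865, 2.449e-61 opposite 18S 1641 and 2.093e-232 at 18S 1056, which with 519, 346 and 2395 reads are among the shallower rRNA sites. The 3 spacer sites, at 32 to 54 reads, were shallower still and are listed at 0 in the authors' deposited table.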

How the data were processed

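PRAISE-seq values of HEK293T cells were taken from a single table of the series. Per the submitters' processing notes the build is hg38. No source used here names the aligner, the caller, the libraries pooled or the test behind the p-value. The level was deposited as a fraction and is printed as a percent. Coverage was deposited as a read count, and the p-value and FDR are those of the authors' deposited table. Deletion reads are the rounded product of level and coverage, which is approximate above 1000 reads because the fraction is rounded to 0.001 (0.0005 either way).

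Sites were placed in the RefSeq 45S, 18S and 28S genes of GRCh38.p14 by position, with the deposited position read as 1-based. Because ENSG00000280441 spans 2 copies, copies and not gene symbols were compared. Sites were matched by identical 11-nt context. All 2956 pairs of sites of the table with the same context were compared by Fisher's exact test (two-sided, scipy 1.17.1, Python 3.11.15) with Benjamini-Hochberg adjustment over all pairs and a threshold of 0.05. Intervals are Clopper-Pearson for levels and Newcombe for differences. The test was run on simulated data first. Chromosome 8 was left out of the comparison with other loci but not of the 2956 pairs, so the counts of sites elsewhere do not cover it. The table lists levels of at least 5%, coverage of at least 15 and at least 3 deletion reads. Named were the 3 genes, every context in all 3 copies, the shared contexts with the largest differences and the highest others. The members, lists and tests were chosen with earlier results of these data known. Per-library values were not used here, so nothing in this text compares knockout with control.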

Additional observations from a re-analysis of the deposited data

How the results depend on the processing

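Of the 10 contexts listed in all 3 copies, 6 remained when sites were matched by their offset, from the start of 18S or to the end of 28S, since the 28S genes differ in length. The pairs of copies that passed numbered 8. They were 2 with Bonferroni adjustment, 0 of the pairs at uridines with no uridine beside them (an alternative chosen after seeing the data), 7 with deletion reads at the closest rounding and 12 when pairs under 100 reads were left out before adjustment. Leaving out each copy in turn, which removes its pairs, left 1 to 4. The difference in median level from the rest of the table was 0.6 points, 5.7 points at coverage of at least 60, 1.75 points for sense sites in 18S and 28S (chosen after seeing the data) and -1.5 points with each context counted once. The median SD between copies was 0.401 points, and 0.351 points with contexts in at least 2 copies. No paired analysis was possible because the table has no column per library. Depth limits the spacer and antisense sites, whose intervals are several points wide.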

Other observations

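Of 6 genes of the H/ACA particle and its assembly, 3 had a site in the table, with 11 sites in all. The share of all genes with a site was not determined, so this count is a description only. SHQ1, an assembly factor of dyskerin, had 6 sites at 8.3 to 22.7%, NAF1, another assembly factor, had 3 at 11.1 to 16.7%, and NHP2, a core protein of the particle, had 2 at 5.6 and 6.1%. These rested on 18 to 56 reads each. DKC1, which encodes dyskerin, GAR1 and NOP10 had none.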
